A study of Mus musculus with 2 samples.

Results

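The 10 integrin chains described here are Itgam, Itgax, Itgal and Itgb2, Itga4 and Itgb7, Itgb1 and Itga6, and Itgav and Itgb5. They were picked by gene symbol, with earlier results of these data known, and are 10 of the 27998 genes measured. Shares of all genes set beside them are therefore descriptions. Each was read in 2 single-cell RNA libraries of tumor mononuclear phagocytes (TMPs), 1 from Fcmr+/+ and 1 from Fcmr-/- C57Bl/6 mice. Fcmr encodes the Fc receptor for IgM, and the Fcmr-/- mice lack it in every tissue. Both groups carried B16 melanoma, a transplanted mouse tumor line, and TMPs were dissociated with enzymes and sorted on MerTk and CD64, which are markers of mature macrophages. The study asked how loss of Fcmr alters the heterogeneity of these cells. How many mice gave each library, and their age, are not given in the sources used here.

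Integrins are pairs of an alpha and a beta chain that span the cell membrane, bind matrix proteins or counter-receptors on other cells, and pass force and signals both ways. Leukocytes carry beta 2 integrins, which need the beta 2 chain Itgb2 to reach the surface. Macrophages also carry beta 1 and alpha v integrins, through which they hold on to fibronectin, laminin and vitronectin and take up dying cells.

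Values are counts of unique molecular identifiers (UMIs), of which each stands for 1 captured RNA molecule. They were summed over the cells of a group and given as CPM, the share of that group's UMIs times 1000000. UMIs were read at the 3′ end, so CPM is not scaled by gene length and capture differs between genes. Intervals are exact at 95% and cover counting error only. With 1 library per genotype there was no replicate check and no test between genotypes was possible. A difference between the genotypes therefore cannot be told apart from one between 2 libraries.

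After the limits on cells, 6352 Fcmr+/+ and 7999 Fcmr-/- cells were kept, with 128408544 and 124630621 UMIs. The median cell held 17973.5 UMIs in Fcmr+/+ and 12911 in Fcmr-/-. The libraries shared 73 cell barcodes. Fcmr itself was found in 4 Fcmr+/+ and 6 Fcmr-/- cells, with 7 and 6 UMIs, so its RNA did not check the genotype labels. Macrophage markers were detected in both libraries, all 8 of them. Markers of T and NK cells, cells that also use Itgal and Itgb7, came to 1.03 CPM in Fcmr+/+ and 14.7 CPM in Fcmr-/- cells. Monocyte markers came to 366 and 554 CPM, and neutrophil markers to 31.2 and 47.7 CPM. Those of melanoma cells came to 40.6 and 64.1 CPM, of dendritic cells to 8.16 and 13.4 CPM, and of endothelial cells to 3.54 and 7.69 CPM. B cell markers, at 12.4 and 10.4 CPM, and fibroblast markers, at 1.02 and 0.915 CPM, were lower in Fcmr-/- cells. The part of these cells in the differences between the libraries was not tested. Alternatives only left out cells with T and NK, dendritic cell or, in part, melanoma cell markers. No cell type known to lack integrins was in the sort, so the part that free RNA plays in the shares of cells was not tested.

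At the level of the whole libraries, Itgal and Itgb7 stood apart from the other 8 chains. Itgal was 2.76-fold and Itgb7 2.13-fold higher in Fcmr-/- cells. All 10 chains reached 5 CPM in at least 1 library, and 2 of them were at least 1.5-fold higher in Fcmr-/- cells on the scale of CPM + 1, against 2.40% of the 8701 genes at that level. Itgal reached 5 CPM only in the Fcmr-/- library, where it was higher. With at least 20 CPM asked for, 1 chain was counted. No chain was 1.5-fold lower, against 1.69% of the 8701 genes. The median log2 ratio, Fcmr-/- over Fcmr+/+ after adding 1 CPM, was 0.10 over the chains and 0.0023 over all these genes. Summed over the 10 chains, integrin RNA made up 1013 CPM in Fcmr+/+ and 1146 CPM in Fcmr-/- cells.

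**Figure D1:**
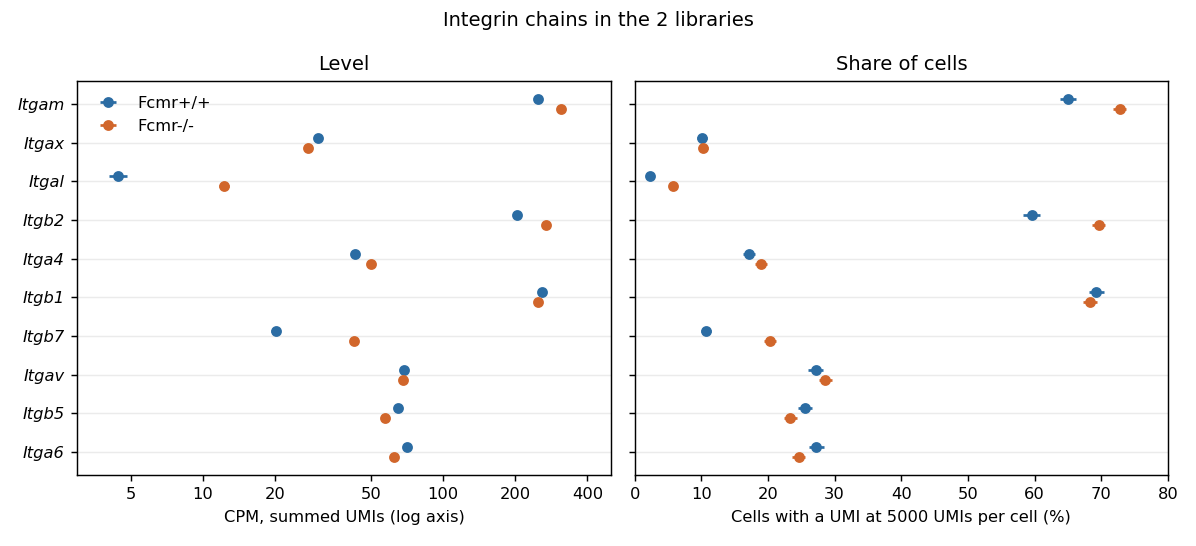
The left panel plots the level of each integrin chain in CPM on a log axis, and the right panel the share of cells with at least 1 UMI after every cell was drawn down to 5000 UMIs. Points are the 1 library of each genotype and bars are exact 95% counting intervals. Itgal (4.44 and 12.3 CPM) and Itgb7 (20.1 and 42.7 CPM) show the widest gaps between the libraries.

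Itgam encodes alpha M (CD11b), which pairs with beta 2 as complement receptor 3. Itgax encodes alpha X (CD11c), which pairs with beta 2 as complement receptor 4 and is widely used to mark dendritic cells. They are neighbors on chromosome 7. In GRCm38, the build of the files, Itgam lies at chr7:128062640-128118491 and Itgax at chr7:128129547-128150657, both on the plus strand, with 11055 bases between them. A further protein-coding gene, Gm49368, overlaps Itgam on the same strand. Its identifier carries the symbol Itgam in the files and was kept apart, with 405 and 487 UMIs against 31997 and 38603 for Itgam.

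The promoters of Itgam, Itgax and Itgb7 are shown. Itgam and Itgax are neighbors whose RNA went apart in the finer clusters at both ends of the Itgax range, described below. Itgb7 had the widest range of the 10 chains over the 10 clusters described here. The sequences are those RefSeq gives for GRCm38.p6, from 250 bases before to 50 bases after the gene's start, 5′ to 3′ on the gene's strand. Capitals mark GAGGAA, a core of sites for the myeloid factor PU.1, on either strand.
Itgam, chr7:128062390-128062689, plus strand: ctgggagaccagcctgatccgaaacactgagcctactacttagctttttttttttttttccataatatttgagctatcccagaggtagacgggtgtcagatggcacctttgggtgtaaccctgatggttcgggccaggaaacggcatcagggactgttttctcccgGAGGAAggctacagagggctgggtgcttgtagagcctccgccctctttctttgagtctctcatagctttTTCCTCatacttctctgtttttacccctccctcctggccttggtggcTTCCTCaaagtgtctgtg
Itgax, chr7:128129300-128129599, plus strand: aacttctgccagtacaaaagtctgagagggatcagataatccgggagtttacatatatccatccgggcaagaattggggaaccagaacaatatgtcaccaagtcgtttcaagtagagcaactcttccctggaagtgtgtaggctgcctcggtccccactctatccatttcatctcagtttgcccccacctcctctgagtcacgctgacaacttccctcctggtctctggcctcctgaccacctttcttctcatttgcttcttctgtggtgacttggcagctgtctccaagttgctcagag
Itgb7, chr15:102231886-102232185, minus strand: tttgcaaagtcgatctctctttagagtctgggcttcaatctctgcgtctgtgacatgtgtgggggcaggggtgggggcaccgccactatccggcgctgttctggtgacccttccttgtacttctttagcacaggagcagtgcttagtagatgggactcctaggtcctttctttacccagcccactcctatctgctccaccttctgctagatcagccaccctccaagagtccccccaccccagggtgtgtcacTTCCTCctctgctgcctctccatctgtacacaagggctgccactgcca
The letters were found 3 times in the Itgam promoter, at -84, -15 and 33 counted from 1 at the start of the gene. They were found 0 times in the Itgax promoter and once in that of Itgb7, at 3. Of the 7 chains with a promoter in the table, 4 held the letters, and so did 28.3% of all 32851 promoters there. TTCNNNGAA, the core of STAT sites, was in 0 of the 7, against 8.30% of all promoters. GAAANNGAA, a core of IRF sites, was in 1 of the 7, that of Itgav, against 8.56% of all promoters. Matches of these letters may overlap one another, and both strands were read. A match of these letters is a description, and no binding was measured here.

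Itgam was read at 249 CPM in Fcmr+/+ and 310 CPM in Fcmr-/- cells, a ratio of 1.24 (95% interval 1.22 to 1.26). Among cells with 10000 to 20000 UMIs the ratio was smaller, at 1.14 (1.11 to 1.17). At equal depth, 65.0% of Fcmr+/+ and 72.8% of Fcmr-/- cells held an Itgam UMI. Its RNA was thus found in most cells of each library. Without drawing cells down to equal depth, the 10% of cells with the most Itgam held 31.5% and 29.8% of its UMIs. For Itgb1 those shares were 27.0% and 29.2%, and for Itgb2 30.7% and 29.5%. Such shares also carry differences in depth between cells, whose part was not tested. Itgb2, the partner shared by all 3 leukocyte alpha chains, was read at 203 and 268 CPM, a ratio of 1.32 (1.29 to 1.34). Cells with an Itgb2 UMI made up 59.5% and 69.6% at equal depth. Both chains were thus among the abundant ones in each library and higher in the Fcmr-/- library by less than 1.5-fold.

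Itgax differed less between the libraries. Its level was 30.3 CPM in Fcmr+/+ and 27.4 CPM in Fcmr-/- cells, a ratio of 0.903 (0.863 to 0.946). At equal depth, the shares of cells with an Itgax UMI were 10.1% and 10.3%, and their intervals overlapped. Without drawing cells down, the 10% of cells with the most Itgax held 71.2% of its UMIs in Fcmr+/+ and 72.1% in Fcmr-/-. For Itgb7, at a lower level in Fcmr+/+ cells, that share was 64.2% there. For Itgal it was 100% in Fcmr+/+, where 7.60% of cells held an Itgal UMI, and 78.3% in Fcmr-/-. At 5000 UMIs per cell, the variance of Itgax counts was 1.64 and 1.46 times their mean, where counting alone gives 1. For Itgam that ratio was 1.65 and 1.60, and for the other chains it was between 1.12 and 1.44.

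Itgal encodes alpha L (CD11a), which with beta 2 forms LFA-1, the receptor for ICAM-1. It was the lowest of the 10 chains, at 4.44 CPM in Fcmr+/+ and 12.3 CPM in Fcmr-/- cells. Its ratio was 2.76 (2.51 to 3.05), from 570 and 1528 UMIs. At equal depth 2.28% of Fcmr+/+ and 5.83% of Fcmr-/- cells held an Itgal UMI. T cells and NK cells also carry LFA-1, and their markers stood higher in the Fcmr-/- library. All 7 of these markers in the files had UMIs in Fcmr-/- and 6 in Fcmr+/+, where Ncr1 was at 0. Without the 35 Fcmr+/+ and 126 Fcmr-/- cells with any such UMI, the Itgal ratio was 2.70 (2.44 to 2.98). Among cells with 10000 to 20000 UMIs it was 2.37 (2.00 to 2.81).

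Itgb7 encodes the beta 7 chain. With alpha 4 it binds MAdCAM-1 on gut vessels, and with alpha E it binds E-cadherin. It was read at 20.1 CPM in Fcmr+/+ and 42.7 CPM in Fcmr-/- cells, a ratio of 2.13 (2.03 to 2.23). The share of cells with an Itgb7 UMI at equal depth was 10.6% and 20.2%. Without cells that held T and NK markers the ratio was 2.13, and among cells with 10000 to 20000 UMIs it was 1.71 (1.58 to 1.85). Itga4, the alpha 4 chain that pairs with beta 1 to bind VCAM-1 and fibronectin, was read at 42.9 and 50 CPM, a ratio of 1.17 (1.12 to 1.21). The gap in Itgb7 between the libraries was thus wider than that in its partner Itga4, and the intervals of the ratios did not overlap.

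The remaining chains, which bind matrix proteins, differed little between the libraries. Itgb1, the beta 1 chain shared by many matrix receptors, was read at 258 CPM in Fcmr+/+ and 248 CPM in Fcmr-/- cells. Itgav, the alpha v chain of vitronectin and fibronectin receptors, was read at 69.0 and 68.2 CPM, and the interval of its ratio (0.959 to 1.02) held 1. Itgb5, which with alpha v takes part in uptake of dying cells, was read at 65.0 and 57.2 CPM, a ratio of 0.879 (0.852 to 0.907). Itga6, whose pair with beta 1 binds laminin, was read at 70.6 and 62.5 CPM, a ratio of 0.886 (0.859 to 0.913). All 5 ratios below 1, that of Itgax included, lost their direction under at least 1 of 17 alternatives. The direction was kept under 16 for Itgax, Itgb5 and Itga6, 14 for Itgb1 and 12 for Itgav. Averaged within clusters of like cells, the log2 ratios of Itgb1, Itgav, Itgb5 and Itga6 were 0.08, 0.20, 0.02 and 0.06, and in cells with 10000 to 20000 UMIs that of Itgax was 0.04.

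To see which states carried each chain, both libraries were clustered together after all integrin genes had been taken off the genes that define clusters. Of 1339 variable genes, 7 were integrin chains and were left out. The 10 clusters are called by number and by their leading genes, and no cell type name is given to them. Cluster 1 (2228 cells) was led by Ccl17, Ifitm1, Il1r2 and Ear2, cluster 2 (1907 cells) by Iigp1 and Cxcl9, and cluster 3 (1689 cells) by Cxcl3 and Ccl24. Cluster 4 (1488 cells) was led by the mitosis genes Top2a, Ube2c and Cenpf. Cluster 5 (1440 cells) was led by the interferon-induced genes Rsad2, Ifit3 and Ifit1, with the monocyte marker Ly6c2. Cluster 6 (1434 cells) was led by Hbb-bs, Hba-a1 and Inhba and held the hypoxia genes Slc2a1, Egln3 and Ero1l. Cluster 7 (1421 cells) was led by Tfrc, Gas6 and Ednrb, and cluster 8 (1409 cells) by Acp5, Apoe, Atp6v0d2 and Gpnmb. Cluster 9 (715 cells) was led by Mfge8, Plpp3, Ctsk and Spp1, and cluster 10 (620 cells) by Adm, Pdgfa and Bhlhe41. The Fcmr-/- library gave 96.7% of cluster 2, 81.9% of cluster 5 and 80% of cluster 9, so in these clusters state and library cannot be told apart.

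Of the 10 chains, 3 varied at least 4-fold on the scale of CPM + 1 between their highest and lowest cluster, and these were Itgb7, Itgal and Itga4. In Fcmr+/+ cells clustered alone, Itgal varied 3.71-fold and Itgax 4.14-fold. Among all 9416 genes that reached 5 CPM in a cluster, 12.0% varied as much, and the median range was 1.85-fold. Itgb1 and Itgav varied least of the chains, 1.58-fold and 1.59-fold.

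**Figure D2:**
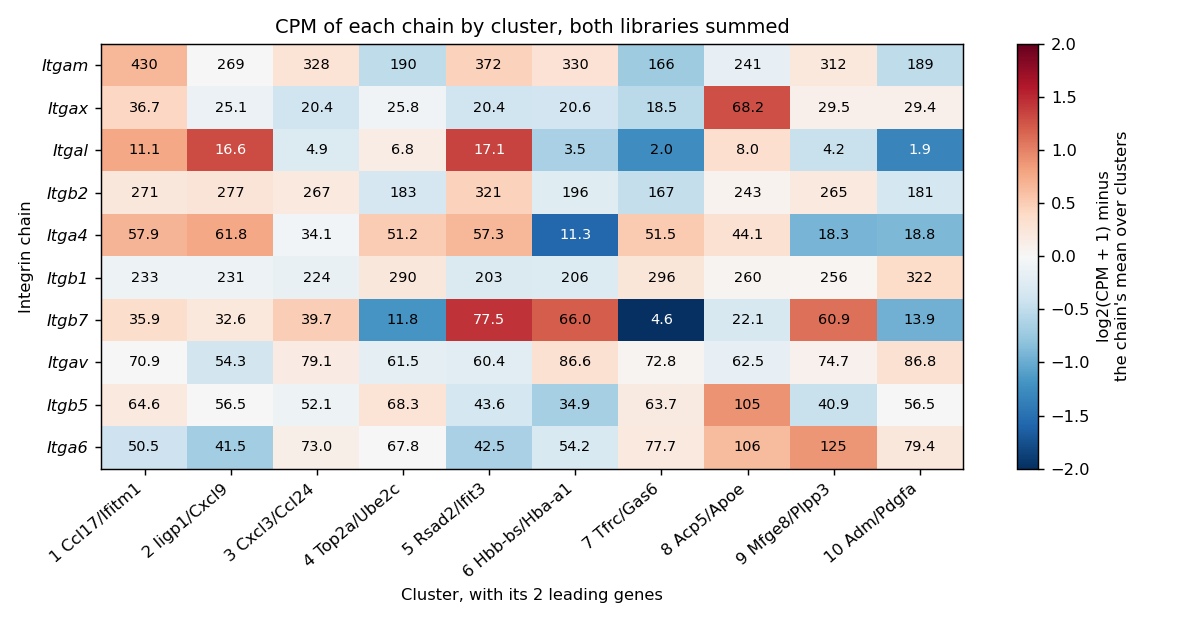
Each cell gives the CPM of 1 integrin chain (rows) in 1 cluster (columns, with the 2 leading genes), with both libraries summed. Colors give log2(CPM + 1) minus the mean of that chain over the 10 clusters. Itgb7 runs from 4.56 CPM in cluster 7 to 77.5 CPM in cluster 5, and Itga4 is lowest in cluster 6 at 11.3 CPM.

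Itgam was highest in cluster 1 at 430 CPM (423 to 437), followed by cluster 5 at 372 CPM, and lowest in cluster 7 at 166 CPM (161 to 170). Clusters 6, 3 and 9 came next at 330, 328 and 312 CPM, and the intervals of neighbors in that order overlapped. In Fcmr-/- cells cluster 3 at 407 CPM was above cluster 5 at 391 CPM, with overlapping intervals. Levels over both libraries also carry the share of each library in a cluster. The main differences in order within a library are given, but not all of them. Itgb2 was highest over both libraries in cluster 5 at 321 CPM and lowest in cluster 7 at 167 CPM. In Fcmr+/+ cells cluster 5 was at 199 CPM, below clusters 2, 1, 9, 3 and 8, which were between 234 and 285 CPM, and the lowest was cluster 6 at 162 CPM. Over the 10 clusters, Pearson's r of log2(CPM + 1) was 0.80 between Itgam and Itgb2. With Itgb2 it was 0.785 for Itgal and 0.15 for Itgax. Clusters share libraries and differ in depth, so such values only describe these 10 points.

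Over both libraries, Itgal had its top levels in the clusters led by interferon-induced genes, at 17.1 CPM in cluster 5 and 16.6 CPM in cluster 2, whose intervals overlapped. Over both libraries cluster 1 was at 11.1 CPM. Within each library the order differed, with cluster 1 at 17.2 CPM in Fcmr-/- cells against 19.4 and 16.6 CPM in clusters 5 and 2, and at 8.08 CPM in Fcmr+/+ cells against 7.48 and 17.4 CPM. It was lowest in clusters 7 and 10, at 2.01 and 1.85 CPM, with overlapping intervals. Monocyte markers came to 1598 CPM in cluster 5, 1113 CPM in cluster 1 and 388 CPM in cluster 2, and to between 51.5 and 410 CPM in the others. The order of the clusters for Itgal was much alike in each library taken alone, with a Spearman's rho of 0.83 over 10 clusters.

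Itgb7 and Itga4 were high in partly separate clusters, and with both libraries summed cluster 5 was high for both. Over both libraries, Itgb7 was at 77.5 CPM (73.4 to 81.8) in cluster 5, 66.0 CPM in cluster 6 and 60.9 CPM in cluster 9. Within each library clusters 5 and 6 were level, at 51.5 and 51.3 CPM in Fcmr+/+ and 83.7 and 82.0 CPM in Fcmr-/- cells. Cluster 9 was at 39.7 and 68.3 CPM in them. Itgb7 was lowest in cluster 7, at 4.56 CPM (3.87 to 5.34). Over both libraries, Itga4 was at 61.8 CPM in cluster 2, 57.9 CPM in cluster 1 and 57.3 CPM in cluster 5. It was then at 51.5 CPM in cluster 7, and neighbors in this order overlapped. Within the libraries, Itga4 in cluster 5 was at 44.6 CPM (37.7 to 52.4) in Fcmr+/+ and 60.3 CPM in Fcmr-/- cells. The Fcmr+/+ value was below those of clusters 2, 1, 7 and 4, which were between 46.2 and 56.3 CPM. Over both libraries, Itga4 was lowest in cluster 6 at 11.3 CPM (9.68 to 13.1), with 18.3 CPM in cluster 9 and 18.8 CPM in cluster 10. Depth moved with Itgb7 in part, as the median cell held 9776 and 8947 UMIs in clusters 5 and 6 and 22594 and 26254.5 in clusters 7 and 4, and its part was not tested across clusters.

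The ratio of Itgb7 to Itga4 UMIs therefore ran from 0.0886 in cluster 7 to 5.85 in cluster 6, with 3.32 in cluster 9. Cluster 5, high for both with the libraries summed, had a ratio of 1.35. Over the 10 clusters r between the chains was -0.29, while r between Itgb7 and Itgam was 0.88. Itgae, the other known alpha partner of beta 7, reached at most 1.11 CPM, in cluster 1, with 42 UMIs. In cluster 6 it was at 0.0641 CPM, from 1 UMI. A ratio of UMIs from separate genes is not a ratio of proteins.

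**Figure D3:**
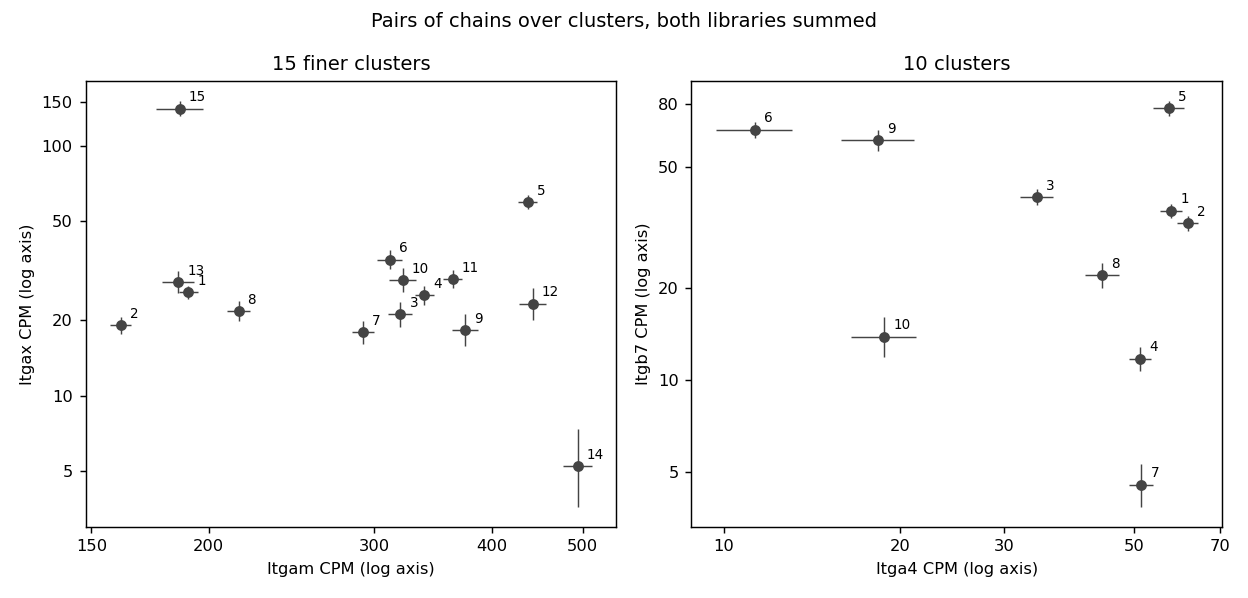
The left panel plots Itgam against Itgax in 15 clusters of a finer clustering, and the right panel Itga4 against Itgb7 in the 10 clusters, all in CPM on log axes with both libraries summed and exact 95% counting intervals. On the left, cluster 14 (Itgam 494 CPM, Itgax 5.24 CPM) and cluster 15 (186 and 141 CPM) lie at opposite corners. On the right, clusters 6 and 9 combine Itgb7 above 60 CPM with Itga4 below 19 CPM.

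Itgb1 ran in largely the opposite order to Itgam, with r of -0.86 over the 10 clusters. It was highest in cluster 10 at 322 CPM (312 to 331) and lowest in cluster 5 at 203 CPM and cluster 6 at 206 CPM. Clusters 4, 7 and 10 were highest for Itgb1, lowest for Itgam, and also deepest. Their median cells held 26254.5, 22594 and 19129.5 UMIs, and the part of depth in this order was not tested. Melanoma cell markers came to 150 CPM in cluster 10, with Dct among its leading genes, and to between 35.7 and 73.9 CPM in the others, and their part in the levels of that cluster was not tested. Itga6 was highest over both libraries in cluster 9 at 125 CPM (118 to 132) and cluster 8 at 106 CPM, and lowest in clusters 5 and 2 at 42.5 and 41.5 CPM. In Fcmr+/+ cells cluster 8 at 104 CPM was above cluster 9 at 93.0 CPM, with overlapping intervals, and cluster 5 was lowest at 45.5 CPM, with cluster 2 at 57.0 CPM. Itgb5 was highest in cluster 8 at 105 CPM (100.5 to 109), then at most 68.3 CPM elsewhere, and lowest in cluster 6 at 34.9 CPM. Itgav was between 54.3 CPM in cluster 2 and 86.8 CPM in cluster 10, and from cluster 10 through clusters 6, 3, 9, 7 and 1 each neighbor in the order overlapped the next. In Fcmr-/- cells Itgav was highest in cluster 6 at 97.9 CPM, with cluster 10 at 95.6 CPM and overlapping intervals. Over both libraries Itgb5, the partner of Itgav, did not share its order, with r of -0.41 between them.

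Over both libraries, Itgax was highest in cluster 8, at 68.2 CPM (64.7 to 71.9), and next in cluster 1 at 36.7 CPM. In the other 8 clusters it was between 18.5 and 29.5 CPM. In Fcmr+/+ cells alone cluster 2, with 63 such cells, was second at 44.5 CPM and cluster 1 was at 35.5 CPM. Cutting the cells more finely, at a resolution of 1.2, widened its range, on the scale of CPM + 1, from 3.55-fold to 22.7-fold over 15 clusters. The clusters at both ends of that range are described because of their Itgax values, so these values are a description.

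The Itgax-high cluster held 354 cells led by Atp6v0d2, Wfs1, Gpnmb and Ctsk, and 95.8% of them were in cluster 8. Itgax was at 141 CPM (132 to 150) there, and at 157 CPM in its Fcmr+/+ and 117 CPM in its Fcmr-/- cells. Itgam was low in it, at 186 CPM, and Itgb7 was at 8.86 CPM, while Itgb5 and Itga6 were both at 112 CPM. Markers of dendritic cells came to 0.483 CPM in it.

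At the other end, 425 cells led by Lyve1, Ltc4s, Rcn3 and Cd163, of which 92.7% were in cluster 1, had Itgax at 5.24 CPM (3.61 to 7.36). Both libraries gave such cells, with Itgax at 4.87 CPM in 195 Fcmr+/+ cells and 5.59 CPM in 230 Fcmr-/- cells. These same cells had the highest Itgam of the 15 clusters, at 494 CPM (477 to 512). The Lyve1 and Cd163 cells thus had the highest Itgam and the lowest Itgax of the 15 clusters, and the Atp6v0d2 cells the highest Itgax with the third lowest Itgam. Not all cells parted so, as a finer cluster led by Ccl17 and Ifitm1 had Itgam at 437 CPM and Itgax at 59.5 CPM. At equal depth both chains were found together 1.06 (Fcmr+/+) and 0.985 (Fcmr-/-) times as often as separate shares within clusters give. With 20 principal components, a set of 486 cells also led by Lyve1 and Ltc4s had Itgam at 500.2 CPM and Itgax at 7.95 CPM.

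That clustering also set apart 172 cells led by Ccl17, Cd209a, Ifitm1 and Ccr7, of which 91.9% were in cluster 1. Dendritic cell markers came to 644 CPM in them, with all 7 detected, and T and NK markers to 147 CPM. Itga4 was at 118 CPM (106 to 131), Itgb7 at 110 CPM (98.3 to 123) and Itgax at 100.2 CPM (89.1 to 112), while Itgb5 and Itga6 were at 24.3 and 25.6 CPM. Itga4 and Itgb7 were thus high together in these cells, at 107 and 109 CPM in Fcmr+/+ and 126 and 111 CPM in Fcmr-/- cells. The part of the T and NK markers in these values was not tested.

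The 10 clusters come from the same 2 libraries, so counts of clusters here and below are not repeated checks. The same counts over all genes are not given. Between the genotypes, Itgam was higher in Fcmr-/- cells in 10 of 10 clusters, with every interval above 1. Cells were not matched for depth within clusters. The ratio ran from 1.08 in cluster 7 to 1.54 in cluster 3, where Itgam was at 265 CPM in Fcmr+/+ and 407 CPM in Fcmr-/- cells. Itgb2 was higher in 9 of 10 clusters, 7 of them with an interval above 1. The widest gap for Itgb2 was in cluster 5, at 199 and 350 CPM, a ratio of 1.76 (1.62 to 1.91). In clusters 2, 7 and 10 its interval held 1.

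Itgb7 was higher in Fcmr-/- cells in 9 of 10 clusters, 8 of them with an interval above 1. In cluster 3 it was at 24.0 CPM in Fcmr+/+ and 59.3 CPM in Fcmr-/- cells, a ratio of 2.46 (2.16 to 2.81). In cluster 4 it was at 7.59 and 16.6 CPM, and in cluster 7 at 3.70 and 8.16 CPM. In clusters 8 and 10 the ratios were 1.14 and 0.871, and both intervals held 1. The mean of the log2 ratios within clusters was 0.69, against 1.05 for all cells.

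For Itgal fewer clusters had an interval off 1. It was above 1 in 4 of 10, which were clusters 1, 4, 5 and 8, and held 1 in the other 6. The upper end of these 6 intervals ran from 1.46 in cluster 3 to 2.54 in cluster 10. Fcmr+/+ and Fcmr-/- cells held only 71 and 58 Itgal UMIs in cluster 3, and 19 and 5 in cluster 10. Such intervals do not show that the libraries were alike there. In cluster 4, the cells with mitosis genes, Itgal was at 2.14 CPM in Fcmr+/+ and 12.2 CPM in Fcmr-/- cells, a ratio of 5.72 (4.17 to 8.0). T and NK markers in that cluster came to 0.182 and 59.6 CPM. Without the 4 and 22 cells with such a UMI, the ratio was 5.03 (3.65 to 7.07). In cluster 1, where T and NK markers came to 1.34 and 24.2 CPM, the ratio was 2.13, and 2.03 without such cells. In cluster 2 Itgal was at 17.4 and 16.6 CPM, but only 63 Fcmr+/+ cells were there. The mean of its log2 ratios within clusters was 0.53, against 1.29 for all cells, which is under the 1.5-fold limit of 0.58.

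**Figure D4:**
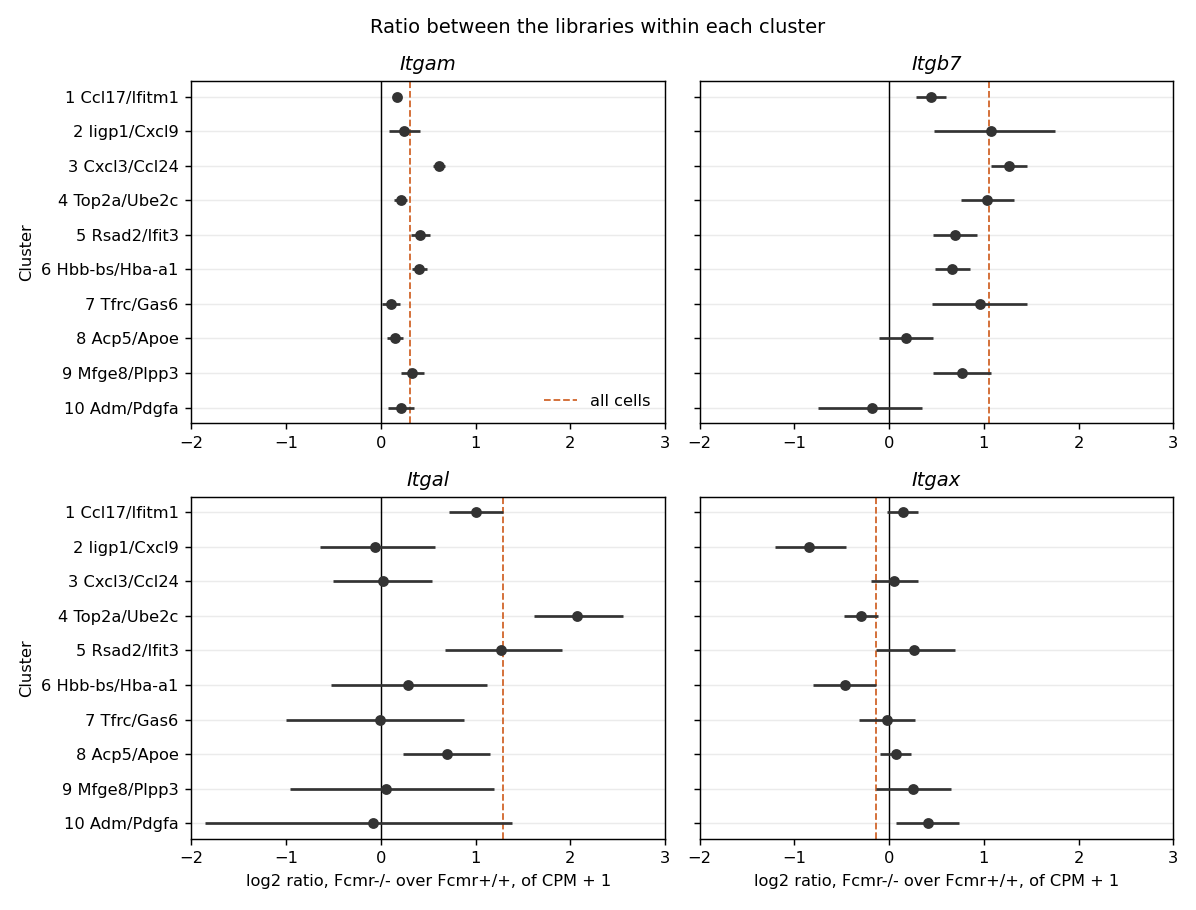
Points give the log2 ratio of CPM + 1, Fcmr-/- over Fcmr+/+, of Itgam, Itgb7, Itgal and Itgax in each of the 10 clusters, with exact 95% counting intervals. The dashed line is the ratio over all cells. All Itgam points lie above 0, from 0.11 to 0.62, whereas Itgal ranges from -0.08 to 2.08.

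For Itgax and the matrix-binding chains the direction differed from cluster to cluster. Itgax was lower in Fcmr-/- cells in cluster 2, at 44.5 CPM in Fcmr+/+ and 24.4 CPM in Fcmr-/- cells, a ratio of 0.548 (0.425 to 0.718), and higher in cluster 10, at 27.3 and 36.7 CPM, a ratio of 1.34 (1.06 to 1.69). Itga6 was lower in clusters 1, 2 and 4 and higher in 5 others with intervals off 1. In cluster 9 it was at 93.0 CPM in Fcmr+/+ and 136 CPM in Fcmr-/- cells, and in cluster 2 at 57.0 and 40.9 CPM. Itgav was higher with an interval above 1 in 4 clusters and lower in 0, the widest in cluster 9, at 54.0 and 82.0 CPM. Itgb1 ran from a ratio of 0.952 in cluster 4 to 1.21 in cluster 10.

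Whether partner chains were found in the same cells was asked at 5000 UMIs per cell, against the share expected from the separate shares of both chains within each cluster. Of 8 known alpha-beta pairs, 5 were found together more often than expected in both libraries. These were Itgam, Itgax and Itgal with Itgb2, Itga6 with Itgb1, and Itgav with Itgb5. The pair of Itgam and Itgb2 was found in 40.7% of Fcmr+/+ and 52.1% of Fcmr-/- cells, 1.03 and 1.02 times the expected share. Itgax and Itgb2 were found together in 6.94% (6.33 to 7.60) and 7.88% (7.29 to 8.49), 1.13 and 1.10 times the expected share. Only for this pair did the interval lie above the expected share in both libraries. Itgav and Itgb5 were found together 1.14 and 1.04 times as often as the separate shares give.

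Itga4 and Itgb7 were found together in 1.81% of Fcmr+/+ and 3.41% of Fcmr-/- cells, 1.12 and 0.970 times the expected share, with both intervals holding it. Of the 16 other alpha-beta combinations of these chains, 7 were also above the expected share in both libraries, so known partners did not stand clearly apart. Correlations across cells of log counts were small, from -0.03 to 0.14 over the known pairs, and in counts as sparse as these they are no finding. The median cell held UMIs of 3 of the 10 chains in each library, and 1.43% of Fcmr+/+ and 0.825% of Fcmr-/- cells held none.

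**Figure D5:**
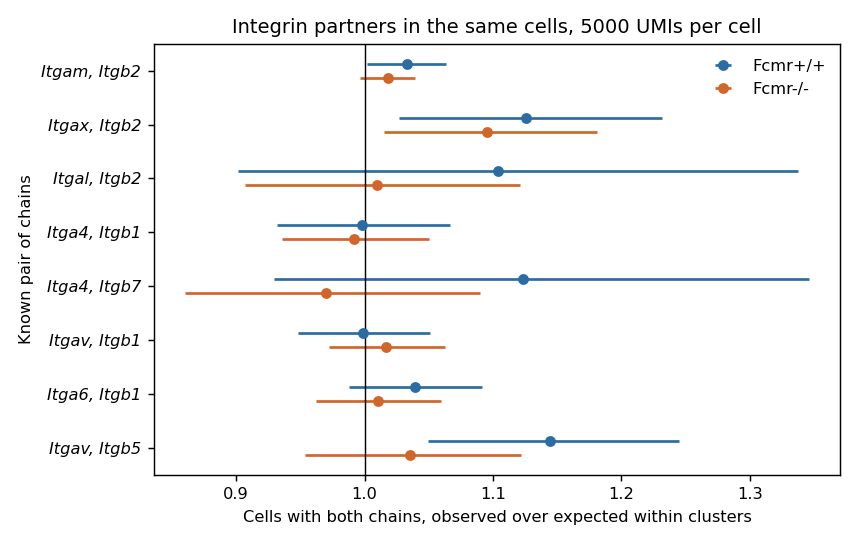
For each of the 8 known alpha-beta pairs, points give the share of cells that held both chains over the share expected within clusters, at 5000 UMIs per cell. Bars are exact 95% intervals and the line marks the expected share. Itgax with Itgb2, at 1.13 and 1.10, is the only pair whose bars lie above the line in both libraries.

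The genes that work with integrins were taken from lists. Of the 17 other integrin chains, 2 reached 5 CPM. Itga5, the alpha chain of the classical fibronectin receptor, was at 55.4 CPM in Fcmr+/+ and 41.4 CPM in Fcmr-/- cells, and neither it nor Itga9 passed 1.5-fold. Of 40 activators and adaptors, 34 reached 5 CPM and 0 were at least 1.5-fold lower in Fcmr-/- cells, against 1.69% of all genes at that level. Fyb, an adaptor that takes part in integrin activation, was at 237 CPM in Fcmr+/+ and 300.5 CPM in Fcmr-/- cells, and the kinase Ptk2b at 43.0 and 56.6 CPM. The actin regulator Vasp was at 75.5 and 95.2 CPM. The median log2 ratio of that list was 0.06, against 0.0023 for all genes.

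Of 37 ligands, 14 reached 5 CPM, 2 were at least 1.5-fold higher and 1 was lower. Of all genes at that level, 2.40% were higher and 1.69% lower by as much. Spp1, the alpha v ligand osteopontin, was at 2719 CPM in Fcmr+/+ and 5019 CPM in Fcmr-/- cells. C3, whose fragment iC3b is bound by the receptors of Itgam and Itgax, was at 9.95 and 35.7 CPM. Icam1, the main ligand of LFA-1, was lower, at 68.1 and 37.5 CPM, while its receptor chain Itgal was higher. Thbs1, a matrix protein that binds several integrins, was at 895 and 1135 CPM. Of 16 lateral partners and tetraspanins, 15 reached 5 CPM, with 1 higher and 0 lower, against the same shares of all genes. The gene that was higher was Cav1, the caveolin-1 gene, at 3.14 and 6.39 CPM, which reached 5 CPM only in Fcmr-/- cells. The tetraspanins Cd81 and Cd63 were at 176 and 119 CPM and at 1220 and 1020 CPM, and Tspan4 and Cd37 were at 79.3 and 62.6 CPM and at 43.6 and 35.3 CPM.

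For 9 chains with at least 20 CPM, the genes most like each were sought over 20 groups, each cluster split by genotype, among 5255 genes. The groups share 2 libraries and clusters, so these correlations only describe them. Itga4 was most like Csk and Lyn (r of 0.98 for both) and Hcls1 (0.96), and Itgam was most like Ahr (0.96), Ltb4r1 and Gpr35 (0.92 for both). Itgb7 was most like Bst1 (0.91), Cd300lf and Thbs1 (0.90 for both). Itgb1 was most like Ptpra (0.94), Itga6 most like Npc1 (0.92), Itgb5 most like Mknk1 (0.88), Itgb2 most like Pira2 (0.87) and Itgav most like S1pr1 (0.83). Itgax had the weakest likeness, with Cd300a at 0.75.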

How the data were processed

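The 2 libraries were made with a Chromium Single Cell 3′ kit. The files deposited hold raw UMI counts, which the authors obtained from reads mapped to GRCm38 and did not normalize. Per the labels, Cell Ranger and Seurat 2.1.0 were used. The limits of the study on cells were applied here. A cell had to hold 200 to 7000 genes and no more than 30% mitochondrial UMIs. These limits left 6352 and 7999 of 6392 and 8017 barcodes, the numbers of cells the study gives. The study's limit on genes, in 3 cells or more, was used for clustering only, and CPM was taken over all 27998 genes. Doublets were not called, and leaving out the 5% of cells with the most genes is an alternative. Of identifiers that share a symbol, the one with the most UMIs kept it.

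CPM is summed UMIs over all UMIs of the group, and log2 ratios add 1 CPM. Poisson, conditional binomial (ratios) and Clopper-Pearson intervals were exact, at 95%. Cells were clustered with Seurat 5.3.0 in R 4.3.3 (normalization to 10000, 10 principal components, 30 neighbors, resolution 0.8), without integrin genes. Python 3.11.15, numpy 2.4.6 and scipy 1.17.1 did the rest. Ratios and intervals were tested on simulated data. Gene positions came from GENCODE and promoters from RefSeq, matched by identifier and by symbol. The text names all 10 members. From each gene list it names the 4 genes with the largest absolute log2 ratio among those with at least 20 CPM, and for each member the genes most correlated with it. An item that the rule would name is not reported here. The members and lists were chosen with earlier results of these data known. Beyond that rule, Itga9, Cav1, Itgae, Gm49368 and the finer clusters were chosen after their values were seen. Alternatives changed the pseudocount, filter, scaling, cells and clustering.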

Additional observations from a re-analysis of the deposited data

Results flagged for a closer look

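For 5 chains the log2 ratio of CPM + 1, Fcmr-/- over Fcmr+/+, was below 0 in at least 1 cluster and above 0 in another. Counting intervals were off 0 in both. The same count over all genes is not given, so this count is a description. For each chain the clusters with the lowest and the highest ratio are named. With 1 library per genotype the difference between clusters was not tested. Itgax was at -0.84 in cluster 2 and 0.41 in cluster 10. Itga4 was at -0.36 in cluster 3 and 0.43 in cluster 5. Itgb1 was at -0.071 in cluster 4 and 0.28 in cluster 10. Itgb5 was at -0.26 in cluster 3 and 0.35 in cluster 5. Itga6 was at -0.47 in cluster 2 and 0.55 in cluster 9. The Fcmr-/- library gave 96.7% of cluster 2, 81.9% of cluster 5 and 80% of cluster 9, so fewer Fcmr+/+ cells stand behind those values.

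A further identifier with the symbol Itgam in the files, named Gm49368 in GENCODE, held 892 UMIs over both libraries, at 3.15 CPM in Fcmr+/+ and 3.91 CPM in Fcmr-/- cells. It lies on the same strand as Itgam and overlaps it, and was left out of the main comparisons. In an alternative added after seeing the data, both identifiers were summed, and the log2 ratio of Itgam stayed at 0.31.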

How the results depend on the processing

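No paired analysis was possible because each genotype has 1 library and the labels carry no replicate numbers. The 2 chains at least 1.5-fold higher in Fcmr-/- cells became 1 when at least 20 CPM was asked for, which Itgal does not reach, and 1 when log2 ratios were averaged within clusters, and stayed 2 under 17 other alternatives. The count of lower chains was 0 under all 19. The median log2 ratio of 0.10 moved to -0.016 with at least 20 CPM and to 0.15 within clusters. The 3 chains with a 4-fold range became 5 with 20 principal components, where Itgax and Itgb5 joined, and were 2 with a pseudocount of 5 CPM, where Itgal was at 3.22-fold. In Fcmr+/+ cells alone the count was 3 with Itgax (4.14-fold) in place of Itgal (3.71-fold). The 5 known pairs found together became 8 without thinning, where cells differ in depth. At 10000 UMIs per cell they were 6, and the set changed. Itgal with Itgb2 left it, at 0.999 times the expected share in Fcmr+/+ cells. Itga4 and Itgav, each with Itgb1, joined it. Alternatives added after seeing the data left out the 3 clusters with at least 80% of cells from 1 library (Itgal 2.23-fold, Itgb7 1.92-fold), the 73 shared barcodes (2.79-fold and 2.13-fold), or T and NK marker cells by cluster. Averaged within clusters, the log2 ratios of Itgb1, Itgav, Itgb5 and Itga6, all below 0 over all cells, were 0.08, 0.20, 0.02 and 0.06, and that of Itgax was 0.04 in cells with 10000 to 20000 UMIs. The causes were not tested.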
